A study of Mus musculus with 4 samples.

Results

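Expression of the small leucine-rich proteoglycans was described in muscle dissected from the limb and back of mouse embryos at E13.5. The family was read through 10 genes chosen by name: Dcn, Lum, Bgn, Fmod, Kera, Ogn, Omd, Aspn, Prelp and Epyc. Every probe set that the platform annotation names with 1 of these symbols was taken, which gave 21 probe sets of the 45101 on the array and 10 of the 18193 genes it names. RNA came from 4 groups with 1 Affymetrix array each: MyoD-/- limb, wild-type (WT) limb, Myf5-/- back and WT back. The labels give the BALB/c background for every group, "BALB/c Myod null" for MyoD-/- limb and "BALB/c Myf5 null" for Myf5-/- back, so the groups share strain and age. What part of each gene the null alleles lack, and whether embryos were pooled, was not stated in the labels used here. MyoD (gene Myod1) and Myf5 are transcription factors that commit cells to skeletal muscle, and the series title ties the arrays to the role of muscle in motor neuron development. With 1 array per group no value has a replicate error and no p-value was computed, so each difference is between single arrays.

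Small leucine-rich proteoglycans are secreted proteins built around a run of leucine-rich repeats that folds into a curved solenoid. Most carry chondroitin, dermatan or keratan sulfate chains, bind fibrillar collagen and set the width and spacing of its fibrils, and several also bind growth factors of the TGF-beta family. They are divided by sequence into class I (Dcn, Bgn and Aspn), class II (Lum, Fmod, Kera, Prelp and Omd) and class III (Ogn and Epyc). In the embryo they are made chiefly by connective tissue, tendon, cartilage and bone cells rather than by muscle fibres.

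Values are signals rescaled to 1 common trimmed mean of 500 per array, in arbitrary units, and signals under a floor of 100 were treated as having no level. A difference was counted when it reached 2-fold (1 on the log2 scale) with the brighter array at 200 or more. Where a gene has several probe sets, the SD of their log2 ratios had a median over genes of 0.35 in the limb pair and 0.32 in the back pair, which covers probe noise and not animals. Myod1 read 688 in MyoD-/- limb, against 1438 in WT limb, and so was lower there but still above the floor. Its dimmer probe set read 92.1 in MyoD-/- limb, under the floor, and 209 in WT limb. Myf5 read 583 in the array labelled Myf5-/- back, against 508 in WT back, and so was no lower there. Directions drawn from either mutant array rest on its label, and where the Myod1 and Myf5 probes lie relative to the null alleles was not known. Each of 14 skeletal muscle markers was above the floor in at least 1 array of every comparison, and cartilage was present too, with Col2a1, the main cartilage collagen, between 1119 and 5495. The ratio of 3 prime to 5 prime signal for Gapdh was 8.06 in MyoD-/- limb, 12.2 in WT limb, 9.46 in the array labelled Myf5-/- back and 6.45 in WT back. Its part in the ratios below was not tested.

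Of class I, decorin (Dcn), a dermatan sulfate proteoglycan that coats collagen fibrils, separated limb from back. Its bright probe set read 2044 in MyoD-/- limb, 2995 in WT limb, 8930 in the array labelled Myf5-/- back and 8945 in WT back. Both back arrays thus lay above both limb arrays, and the back arrays were nearly equal. Its log2 ratio was -0.55 in the limb pair and 0.00 in the back pair. A second, dimmer Dcn probe set read 94.6 in MyoD-/- limb, 297 in WT limb, 354 in the array labelled Myf5-/- back and 168 in WT back. It gave 1.08 in the back pair and put WT limb above WT back, so the Dcn results rest on the bright probe set. In the limb pair it was at least 2.97-fold lower, on the same side as the bright one. Biglycan (Bgn), a relative of decorin with glycosaminoglycan chains that is abundant in developing bone and connective tissue, was likewise higher in both back arrays than in both limb arrays, in all 3 of its probe sets. It read 3676 in MyoD-/- limb, 4764 in WT limb, 6907 in the array labelled Myf5-/- back and 7126 in WT back. Its 3 probe sets gave log2 ratios from -0.46 to -0.37 in the limb pair and from -0.05 to 0.20 in the back pair. Asporin (Aspn), a collagen-binding class I member with a stretch of aspartate, read 169 in MyoD-/- limb, 402 in WT limb, 409 in the array labelled Myf5-/- back and 578 in WT back. It was thus lowest in MyoD-/- limb, at 2.38-fold below WT limb (log2 ratio -1.25). The name of the probe set behind these Aspn values marks probes that can be shared with other transcripts. The second Aspn probe set read 235 in MyoD-/- limb, 300 in WT limb, 235 in the array labelled Myf5-/- back and 570 in WT back. That probe set placed the larger step in the back pair (-1.28) and gave only -0.35 in the limb pair, so both Aspn probe sets were lower in each mutant array but differed on which mutant was farther from its WT.

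Of class II, lumican (Lum), a keratan sulfate proteoglycan of cornea, skin and tendon, differed between the limb arrays. It read 7791 in MyoD-/- limb, against 3668 in WT limb, a 2.12-fold difference (log2 ratio 1.09) on its single probe set. The back arrays were close to each other, at 5940 in the array labelled Myf5-/- back and 6293 in WT back (-0.08). WT limb was therefore the lowest of the 4 arrays for Lum and MyoD-/- limb the highest, and 98.3% of all genes had a lower ratio in the limb pair. Keratocan (Kera), known above all from cornea and tendon, showed the opposite regional order to Dcn. It read 1718 in MyoD-/- limb, 1814 in WT limb, 592 in the array labelled Myf5-/- back and 523 in WT back. Both limb arrays lay above both back arrays, and neither mutant differed from its WT by more than 1.13-fold. Fibromodulin (Fmod), a keratan sulfate proteoglycan that binds collagen and guides its crosslinking in tendon, read 1577 in MyoD-/- limb, 2238 in WT limb, 1306 in the array labelled Myf5-/- back and 1787 in WT back. All 6 of its probe sets were lower in each mutant, with log2 ratios from -0.90 to -0.13 in the limb pair and from -0.53 to -0.13 in the back pair, and no Fmod probe set reached 2-fold. The names of these sets mark probes that can be shared, except for the set at -0.24 in the limb pair and -0.36 in the back pair. The 6 may therefore not be separate readings.

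Prelp, a class II protein with an N-terminal region rich in arginine and proline that binds heparan sulfate, is known from cartilage and other connective tissue. Its brighter probe set read 293 in MyoD-/- limb, 105 in WT limb, 21.4 in the array labelled Myf5-/- back and 295 in WT back. The mutant was thus 2.80-fold higher in the limb (log2 ratio 1.48) and, with a signal under the floor, at least 2.95-fold lower in the back. The other Prelp probe set stayed under the floor in all 4 arrays, from 18.9 to 56.8, and the name of the brighter set marks probes that can be shared with other transcripts. Osteomodulin (Omd), a keratan sulfate proteoglycan of bone, was seen above the floor only in the back. It read 40.0 in MyoD-/- limb and 31.8 in WT limb, both under the floor. In the back it read 224 in the array labelled Myf5-/- back, against 101 in WT back, a 2.23-fold difference (1.15) with WT back barely above the floor. Of 5 bone markers on the array, Alpl, an alkaline phosphatase of bone and mesenchyme, was 400 in the array labelled Myf5-/- back and 109 in WT back. Ibsp, bone sialoprotein, was under the floor in both by the probe set that stands for it, while its other probe set read 134 in the array labelled Myf5-/- back and 111 in WT back. The bone list had a median of -0.10 over 3 measured genes. The part of bone cells in the Omd value was not tested.

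Of class III, osteoglycin (Ogn, also called mimecan), a keratan sulfate proteoglycan of connective tissue, read 2602 in MyoD-/- limb, 3463 in WT limb, 4041 in the array labelled Myf5-/- back and 4474 in WT back. Its dimmer probe set read 268 in MyoD-/- limb, 435 in WT limb, 342 in the array labelled Myf5-/- back and 682 in WT back, so both probe sets were lower in each mutant, with a back ratio of -0.15 in the first and a larger difference, short of 2-fold, in the second. Epiphycan (Epyc), a dermatan sulfate proteoglycan of growth cartilage, read 450 in MyoD-/- limb, 370 in WT limb, 286 in the array labelled Myf5-/- back and 409 in WT back. Its log2 ratio was 0.28 in the limb pair and -0.51 in the back pair. These went the same way as the cartilage markers, whose median was 0.13 in the limb pair (11 of 14 measured above 0, summed signal 24773 in MyoD-/- limb and 21616 in WT limb). In the back pair that median was -1.37 (15 of 15 below 0, summed signal 7276 in the array labelled Myf5-/- back and 25565 in WT back). The part of cartilage in the Epyc and Prelp values was not tested.

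**Figure D1:**
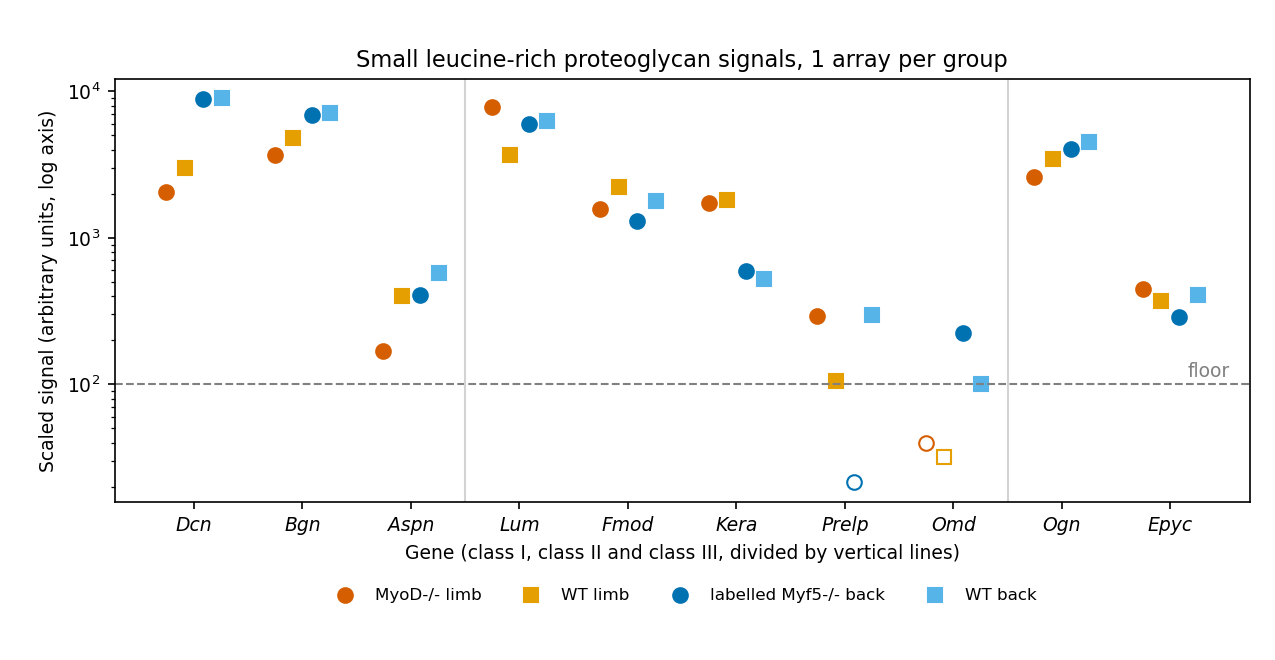
Scaled signal (log axis, arbitrary units) of the probe set standing for each of the 10 genes in MyoD-/- limb, WT limb, the array labelled Myf5-/- back and WT back, with 1 point per array and open symbols under the floor of 100 (dashed line). Levels are to be compared within a gene only: Dcn is highest in both back arrays (8930 and 8945), Kera in both limb arrays (1718 and 1814), and Prelp and Omd lie near or under the floor in part of the arrays.

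In MyoD-/- limb against WT limb, 9 of the 10 members were above the floor in at least 1 array, and Omd was not. Lum and Prelp were at least 2-fold higher, 2 of 9, where 2.30% of the 14496 genes measured were. Aspn was at least 2-fold lower, 1 of 9, where 5.19% of genes were. The other 6 differed by 1.06-fold to 1.47-fold. Of the 9 members 6 lay below 0 and 3 above, where 53.9% of all genes measured lay below 0. The members had a median of -0.37 against -0.04 over all genes. Skeletal muscle markers were lower in the same pair, 12 of 14 below 0, with a median of -0.47 and a summed signal of 55833 in MyoD-/- limb and 85567 in WT limb. Tendon markers had a median of -0.34 and connective tissue markers -0.26, which came to -0.06 under quantile normalization. Whether these tissues bear on the members' values was not tested, and in dissected pieces fewer cells of a type and less RNA per cell cannot be told apart. The split of all calls depended on the scaling, with 30.7% of them higher here, 45.5% under quantile normalization and 47.2% after loess. The ratio of Lum was 1.06 under quantile normalization, 1.09 after loess and 1.07 with a pseudocount of 100. The other alternatives could hardly move it, since Lum has 1 probe set with signals far above the floor.

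In the array labelled Myf5-/- back against WT back, all 10 members were above the floor in at least 1 array. Omd was at least 2-fold higher, 1 of 10, where 5.50% of the 14684 genes measured were, and Prelp was at least 2-fold lower, 1 of 10, where 2.48% of genes were. The Omd ratio of 1.15 was 0.88 under quantile normalization, 0.86 after loess, 0.69 with a pseudocount of 100 and 0.16 with a floor of 200, so it fell short of 2-fold under each of these. Both calls rest on a probe set with an array just above or under the floor. The members had a median of -0.12 against 0.05 over all genes, with 8 below 0 and 2 above, where 46.2% of all genes measured lay below 0. Among those 8, Dcn (8930 against 8945), Bgn (-0.05), Lum (-0.08) and Ogn (-0.15) lay within the median probe-set SD of 0.32. By their brightest probe sets, Dcn, Lum, Bgn and Ogn differed by no more than 1.11-fold between these arrays, whereas the dimmer Dcn probe set was 2.11-fold higher and the dimmer Ogn probe set lower (342 in the array labelled Myf5-/- back, 682 in WT back). Skeletal muscle markers were lower over the same pair, 14 of 14 below 0, with a median of -0.77 and a summed signal of 107275 in the array labelled Myf5-/- back and 169932 in WT back. Connective tissue markers had a median of 0.09, and -0.23 when each gene was read by its second brightest probe set. Of all calls, 68.9% were higher here, 50.3% under quantile normalization and 48.8% after loess.

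**Figure D2:**
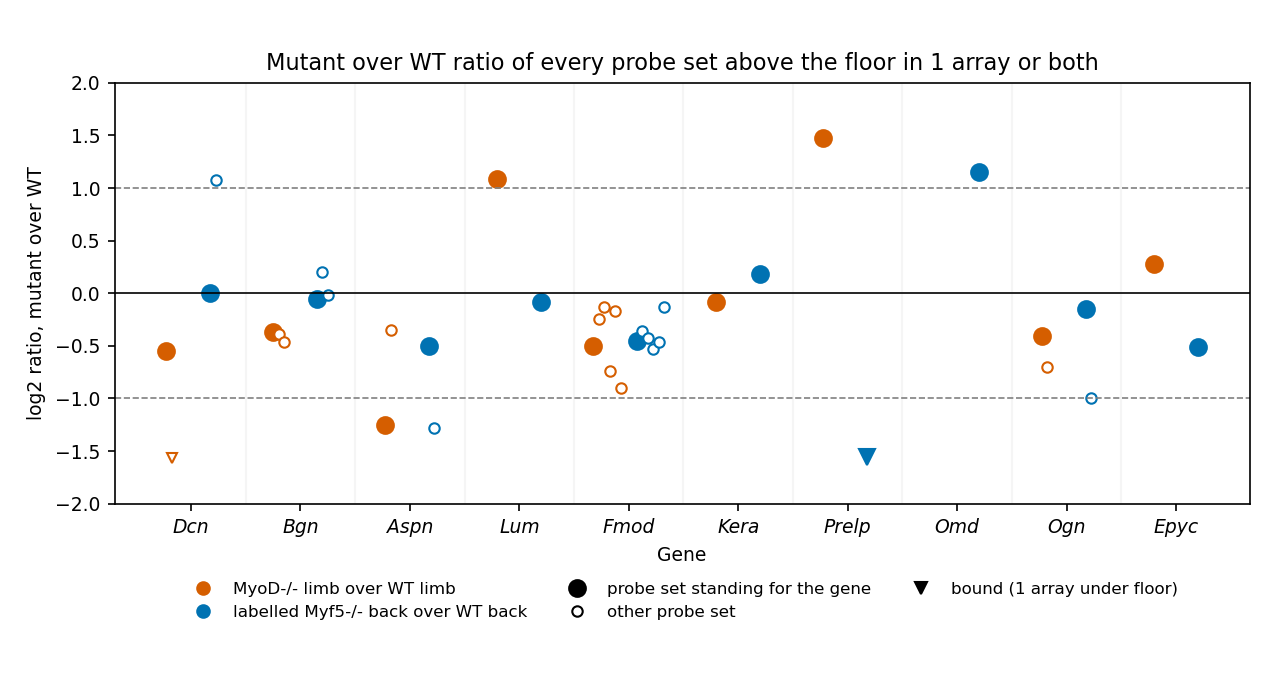
Log2 ratio of mutant over WT for each probe set of the 10 genes, for MyoD-/- limb over WT limb and for the array labelled Myf5-/- back over WT back, with filled symbols for the probe set standing for the gene, open ones for the others, triangles for bounds and dashed lines at 2-fold. Probe sets with both arrays under the floor are left out. Lum (1.09) and Prelp (1.48) lie above the upper line in the limb pair and Omd (1.15) and the dimmer Dcn probe set (1.08) in the back pair, while the 6 Fmod probe sets lie below 0 in both.

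The pairs share no array, so their ratios can be set side by side. The difference between them (limb pair minus back pair) was 1.17 for Lum, -1.15 for Omd and 3.05 for Prelp, and Prelp had opposite signs in the pairs. The Prelp figure was computed with its dimmest array at the floor of 100, and the Omd figure with both limb arrays at that floor. Among the 8 members at 100 or more in all 4 arrays, only Lum had an absolute difference of 1 or more, 1 of 8, against 13.9% of the 10911 genes at that level in all arrays. Fmod differed least, at -0.05, and Bgn, Ogn and Kera lay between -0.33 and -0.26. None of these differences was tested.

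Limb was then set against back, in the WT arrays and, with no array in common, in the mutant arrays. Kera was 3.47-fold higher in WT limb than in WT back (log2 ratio 1.80) and 2.90-fold higher in MyoD-/- limb than in the array labelled Myf5-/- back (1.54). Dcn was 2.99-fold lower in WT limb than in WT back (-1.58) and 4.37-fold lower in MyoD-/- limb than in the array labelled Myf5-/- back (-2.13). By its bright probe set, Dcn thus kept the opposite regional order to Kera in both contrasts. The dimmer Dcn probe set gave 0.82 between the WT arrays, the other way, and -1.82, a bound, between the mutant arrays. In the WT arrays 1 of 10 members, Kera, was at least 2-fold higher in limb, where 5.30% of the 14605 genes measured were. Dcn and Prelp, 2 of 10, were at least 2-fold lower in WT limb, where 3.50% of genes were. Prelp read 105 in WT limb, just above the floor, and its other probe set was under the floor throughout. In the mutant arrays Kera and Prelp, 2 of 10, were at least 2-fold higher in MyoD-/- limb, where 3.61% of the 14609 genes were, and Dcn, Aspn and Omd, 3 of 10, were at least 2-fold lower, where 7.73% were. Of these, Aspn (-1.28) was 0.00 in its other probe set and -0.92 with a pseudocount of 100. Omd (-1.16, a bound) was -0.93 after loess and -0.16 with a floor of 200. Prelp (1.55, a bound) was 0.55 with a floor of 200. Bgn and Ogn were lower in limb in both contrasts, at -0.58 and -0.37 in WT and at -0.91 and -0.63 in the mutants. Lum was higher in MyoD-/- limb than in the array labelled Myf5-/- back (0.39) but lower in WT limb than in WT back (-0.78), MyoD-/- limb being the highest of its arrays and WT limb the lowest. The split of all calls in the mutant contrast depended on the scaling, with 31.8% higher, 49.7% under quantile normalization and 52.7% after loess.

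Other markers differed between limb and back as well. Skeletal muscle markers were lower in WT limb than in WT back in 13 of 14 (median -1.01), macrophage markers in 7 of 7 (-1.18) and nerve and glia markers in 8 of 8 (-0.90). Connective tissue markers had a median of 0.19 between the WT arrays, and Pdgfra, a receptor of fibroblasts, was 11517 in WT limb and 8353 in WT back. Mkx, a tendon transcription factor, was 990 in WT limb and 295 in WT back, while the tendon list had a median of -0.34. Epidermis markers were higher in WT limb in 10 of 11 (0.47). In the mutant contrast cartilage markers had a median of 1.80, with 11 of 15 at least 2-fold higher. Their summed signal was 24773 in MyoD-/- limb and 7276 in the array labelled Myf5-/- back, beside the higher Prelp and Epyc there. Between the WT arrays the cartilage list was mixed, with a median of 0.18, 8 genes above 0 and 7 below. Its summed signal was 21616 in WT limb and 25565 in WT back. Prelp read 105 in WT limb and 295 in WT back. Epyc read 370 in WT limb and 409 in WT back, so both members were lower in WT limb. What part these tissues have in the members' values was not tested.

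**Figure D3:**
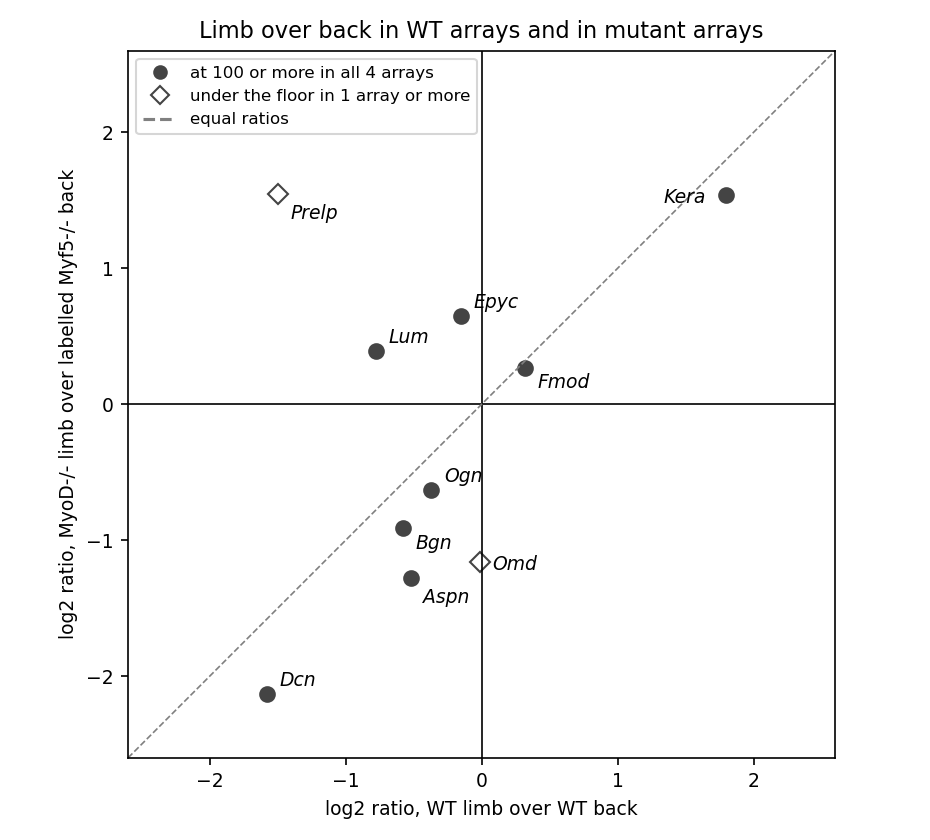
Log2 ratio of WT limb over WT back (horizontal axis) against that of MyoD-/- limb over the array labelled Myf5-/- back (vertical axis) for the 10 genes. Each gene is shown by its brightest probe set only, with open diamonds for genes under the floor in 1 array or more and a dashed line of equal ratios. Kera sits at the upper right (1.80 and 1.54), Dcn at the lower left (-1.58 and -2.13), and Lum, Epyc and Prelp lie in the quadrant where the sign turned.

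Members were also compared by the shape of their pattern over the 4 arrays, as the Euclidean distance between log2 signals centred on each gene's mean, for the 8 members at 100 or more throughout. With 4 arrays this is a description only. Of the 28 pairs of members, Bgn and Ogn were the closest (0.255) and Dcn and Kera the farthest (3.54), against a median of 1.29. Even so, 110 other genes lay nearer to Bgn than Ogn did, and 217 lay nearer to Ogn than Bgn did. Of the 10559 other genes compared, those most like Dcn were Meis1, a homeobox factor (distance 0.234), Postn, the matrix protein periostin (0.261), and Dlk1, an imprinted membrane protein of embryonic mesenchyme (0.263). Postn read 4501 in MyoD-/- limb, 5509 in WT limb, 16562 in the array labelled Myf5-/- back and 19889 in WT back. Those most like Kera were the homeobox gene Prrx2 of limb mesenchyme (0.122), the neuropeptide precursor Tac1 (0.271) and Hoxd9, a homeobox gene of trunk and limb (0.284). Prrx2 read 1489 in MyoD-/- limb, 1612 in WT limb, 531 in the array labelled Myf5-/- back and 507 in WT back. Aspn, by its brighter probe set, was closest to Tnnt1, the slow skeletal troponin T (0.179), which read 4567 in MyoD-/- limb, 9319 in WT limb, 11019 in the array labelled Myf5-/- back and 14849 in WT back. Lum was closest to Nt5c3b (0.105), Bgn to Ms4a6c (0.0361), Fmod to Shb (0.0363), Ogn to Txndc11 (0.0570) and Epyc to Mbnl2 (0.0238).

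Most members are neighbours in the genome. In the RefSeq annotation of GRCm38.p6, Dcn, Lum, Kera and Epyc are successive protein-coding genes on chromosome 10, Aspn, Omd and Ogn on chromosome 13, and Prelp and Fmod on chromosome 1, while Bgn lies on the X chromosome away from the others. On chromosome 10, Dcn and Kera, separated by Lum alone, were the farthest pair of all. Dcn and Lum lay 2.02 apart, Lum and Kera 2.04, Kera and Epyc 1.52 and Dcn and Epyc 2.22, all above the median. Lum and Epyc, separated by Kera alone, lay 0.784 apart, below the median. Of 10559 other genes, however, 3428 lay nearer to Lum than Epyc did, and 6831 lay nearer to Epyc than Lum did. On chromosome 13, Aspn and Ogn lay 0.758 apart, below the median, with 332 genes nearer to Aspn than Ogn was. Nearer to Ogn than Aspn was were 5562 genes. Being under the median of member pairs thus does not set neighbours apart from other genes. Omd between them was above the floor in back arrays only, so neither it nor Prelp, the neighbour of Fmod, has a distance.

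The RefSeq promoter table (GRCm38.p6) held 8 of the 10 members, in 9 windows of 250 bases before a start site. MyoD and Myf5 bind the E-box, CANNTG, which reads the same on both strands, and the form CAGCTG is contained in it. CANNTG occurred in 5 of the 9 windows, where 66.2% of all 32851 windows of that length held it, and CAGCTG in 2 of 9, where 13.0% did. The windows of the chromosome 13 neighbours are shown because these genes adjoin. That of Bgn is shown because it was the member closest to Ogn in pattern and the windows of both hold CAGCTG. Each is printed 5′ to 3′ on the plus strand, with E-boxes in capitals. They are chr13:49544193-49544442 for Aspn, chr13:49582212-49582461 for Omd, chr13:49607765-49608014 for Ogn and chrX:73483351-73483600 for Bgn.
Aspn: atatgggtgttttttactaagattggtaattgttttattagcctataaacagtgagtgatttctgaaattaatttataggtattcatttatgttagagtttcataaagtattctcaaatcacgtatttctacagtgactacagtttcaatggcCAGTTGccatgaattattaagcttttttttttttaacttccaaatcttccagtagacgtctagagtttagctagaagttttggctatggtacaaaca
Omd: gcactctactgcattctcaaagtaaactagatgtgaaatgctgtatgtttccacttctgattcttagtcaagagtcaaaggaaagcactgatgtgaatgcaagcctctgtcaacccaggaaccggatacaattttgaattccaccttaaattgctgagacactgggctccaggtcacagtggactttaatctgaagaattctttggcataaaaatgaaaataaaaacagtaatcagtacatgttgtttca
Ogn: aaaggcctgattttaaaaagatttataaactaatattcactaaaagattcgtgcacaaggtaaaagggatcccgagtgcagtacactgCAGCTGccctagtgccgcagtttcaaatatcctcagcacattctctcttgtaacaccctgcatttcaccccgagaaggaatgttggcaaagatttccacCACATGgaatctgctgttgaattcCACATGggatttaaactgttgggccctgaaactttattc
Bgn: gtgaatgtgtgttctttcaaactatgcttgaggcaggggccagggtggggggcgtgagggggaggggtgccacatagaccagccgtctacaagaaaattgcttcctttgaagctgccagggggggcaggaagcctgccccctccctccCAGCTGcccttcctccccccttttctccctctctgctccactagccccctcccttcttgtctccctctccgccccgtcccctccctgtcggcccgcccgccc

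The window of Aspn held 1 E-box, that of Omd 0, that of Ogn 3 and that of Bgn 1. Aspn, with CAGTTG beginning 97 bases before its start, was lower in both mutant arrays. Ogn has CAGCTG at 162 bases and CACATG at 63 and 39 bases before its start. Its bright probe set was lower in both mutant arrays by less than 2-fold, at -0.41 in the limb pair and -0.15 in the back pair. The back ratio lies within the median probe-set SD of 0.32. Bgn, with CAGCTG at 102 bases, was lower in MyoD-/- limb and within 1.03-fold of WT in the array labelled Myf5-/- back. Fmod, whose window is not printed, has CATCTG at 189 bases and was lower in both mutant arrays. The Epyc window inside its own gene span, also not printed, held CATTTG at 118 and CAGTTG at 106 bases, and its other window 0 E-boxes. Epyc was higher in MyoD-/- limb (0.28) and lower in the array labelled Myf5-/- back (-0.51). The windows of Kera and Prelp, which hold 0 E-boxes, lie wholly or mostly inside the span of their own genes and are not printed. Kera stood at -0.08 in the limb pair and 0.18 in the back pair. Prelp stood at 1.48 in the limb pair and -1.56, a bound, in the back pair. Omd, also with 0 E-boxes, was under the floor in both limb arrays and stood at 1.15 in the back pair. Whether E-boxes bear on these ratios was not tested. A match is a run of letters and not a binding site, and a window without it says only that these letters are not there.

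Other genes of the proteoglycan pathway were read from lists chosen by function. Of the other small leucine-rich matrix proteins, Podn, podocan, was 325 in MyoD-/- limb and 541 in WT limb, and 426 in the array labelled Myf5-/- back and 580 in WT back. Chadl, a chondroadherin-like cartilage protein, was under the floor in the array labelled Myf5-/- back and 306 in WT back, at least 3.06-fold lower, which was the only call in either genotype pair among 5 measured in the limb and 4 in the back. The large proteoglycan aggrecan, Acan, was 1031 in MyoD-/- limb and 827 in WT limb, and 268 in the array labelled Myf5-/- back and 695 in WT back (-1.37). Versican, Vcan, the large proteoglycan of embryonic mesenchyme, by its brightest probe set was 10549 in MyoD-/- limb and 9797 in WT limb, and 5783 in the array labelled Myf5-/- back and 7866 in WT back. Brevican, Bcan, known from brain, was 285 in the array labelled Myf5-/- back and under the floor in WT back, at least 2.85-fold higher. Medians were -0.36 in the limb pair and -0.48 in the back pair for the other leucine-rich proteins, and 0.11 in the limb pair and 0.26 in the back pair for the large proteoglycans. Acan, itself on the cartilage list, and Chadl went the way of the cartilage markers.

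Enzymes that start and build chondroitin and dermatan sulfate chains had medians near 0. In MyoD-/- limb 12 of 18 measured were above 0 with a median of 0.25, and in the array labelled Myf5-/- back 8 of 18 with a median of -0.05. The limb median was 0.03 when genes were read by their second brightest probe sets. Dse and Dsel, the epimerases that turn chondroitin into dermatan sulfate, lay within 1.22-fold in both pairs, as did Chst14, which sulfates dermatan. Csgalnact2, a chondroitin chain enzyme, was 324 in MyoD-/- limb and 138 in WT limb (1.23). B3galt6, which builds the linkage to the protein, was under the floor in MyoD-/- limb and 339 in WT limb, at least 3.39-fold lower. Of its other probe sets, 1 was under the floor in both arrays and 1 gave -0.64, at 101 in MyoD-/- limb and 157 in WT limb. Ust, a uronyl sulfotransferase, was 114 in the array labelled Myf5-/- back and 385 in WT back (-1.76). Its other probe set gave 1.75, a bound with WT back under the floor. Of the chondroitin sulfotransferases, Chst12 was 128 in the array labelled Myf5-/- back and 268 in WT back (-1.07), and Chst13 was 226 in the array labelled Myf5-/- back and under the floor in WT back, at least 2.26-fold higher. Of 6 keratan sulfate enzymes, with medians of 0.09 in the limb pair and -0.23 in the back pair, 1 was at least 2-fold higher, Chst2. It read 434 in MyoD-/- limb and 190 in WT limb (1.19), with -0.14 and 0.03 in its other probe sets. Each of those had an array under the floor and the other barely above it, so neither measures the ratio.

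The collagens that these proteoglycans bind were read next. Of 11 fibrillar and fibril-associated collagen genes, 10 were below 0 in MyoD-/- limb by their brightest probe sets, with a median of -0.45, and 1 of them was at least 2-fold lower. With each gene read by the median of its probe sets, the list stood at -0.03. Col1a1 was 8868 in MyoD-/- limb and 16300 in WT limb (-0.88), and Col12a1, a fibril-associated collagen, was 618 in MyoD-/- limb and 1648 in WT limb (-1.42), with 0.56 in another probe set. Col1a2, the other chain of type I collagen, stood at -0.45, beside -0.55 for Dcn, -0.37 for Bgn, -0.50 for Fmod, -0.41 for Ogn and 1.09 for Lum. In the back pair the collagen median was 0.06, and it changed sign under quantile normalization (-0.04). Collagen processing enzymes were above 0 in 13 of 16 in MyoD-/- limb with a median of 0.24 and 0 calls either way. In the back pair 6 of 17 were above 0 with a median of -0.08. Bmp1, the protease that trims procollagen and the propeptide of biglycan, was 1904 in MyoD-/- limb and 1548 in WT limb, and 2633 in the array labelled Myf5-/- back and 2107 in WT back. Pcolce2, a procollagen processing enhancer, was 344 in MyoD-/- limb and 217 in WT limb, but under the floor in the array labelled Myf5-/- back and 339 in WT back, at least 3.39-fold lower. Elastic and matricellular genes had medians of -0.06 in the limb pair and -0.27 in the back pair. There Tnc, tenascin C, was 1750 in the array labelled Myf5-/- back and 3891 in WT back (-1.15). Another Tnc probe set gave 0.06 but lay at the floor, at 105 in the array labelled Myf5-/- back and 87.4 in WT back.

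Ligands and receptors of the TGF-beta family, which decorin and its relatives bind, were read last. Their median was -0.08 in MyoD-/- limb over 13 measured genes with 0 calls, although it was 0.15 without probe sets that may share probes. In the back pair the median was -0.18 over 13 genes with 1 gene at least 2-fold apart each way. These were Acvrl1, a type I receptor of endothelium, at 207 in the array labelled Myf5-/- back and under the floor in WT back, with its other probe set under the floor in both, and Ccn2, a matricellular target of the pathway, at 912 in the array labelled Myf5-/- back and 2462 in WT back (-1.43). Tgfb2 and Tgfb3, both ligands, lay within 1.40-fold of WT in both mutants by their brightest probe sets. Of the remaining marker lists, nerve and glia had medians of 0.22 in the limb pair and -0.26 in the back pair, macrophage -0.21 and -0.25, red blood cell -0.37 and 0.16, epidermis 0.09 and 0.17, endothelium -0.07 and 0.12, and smooth muscle and pericyte -0.08 and -0.05.

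**Figure D4:**
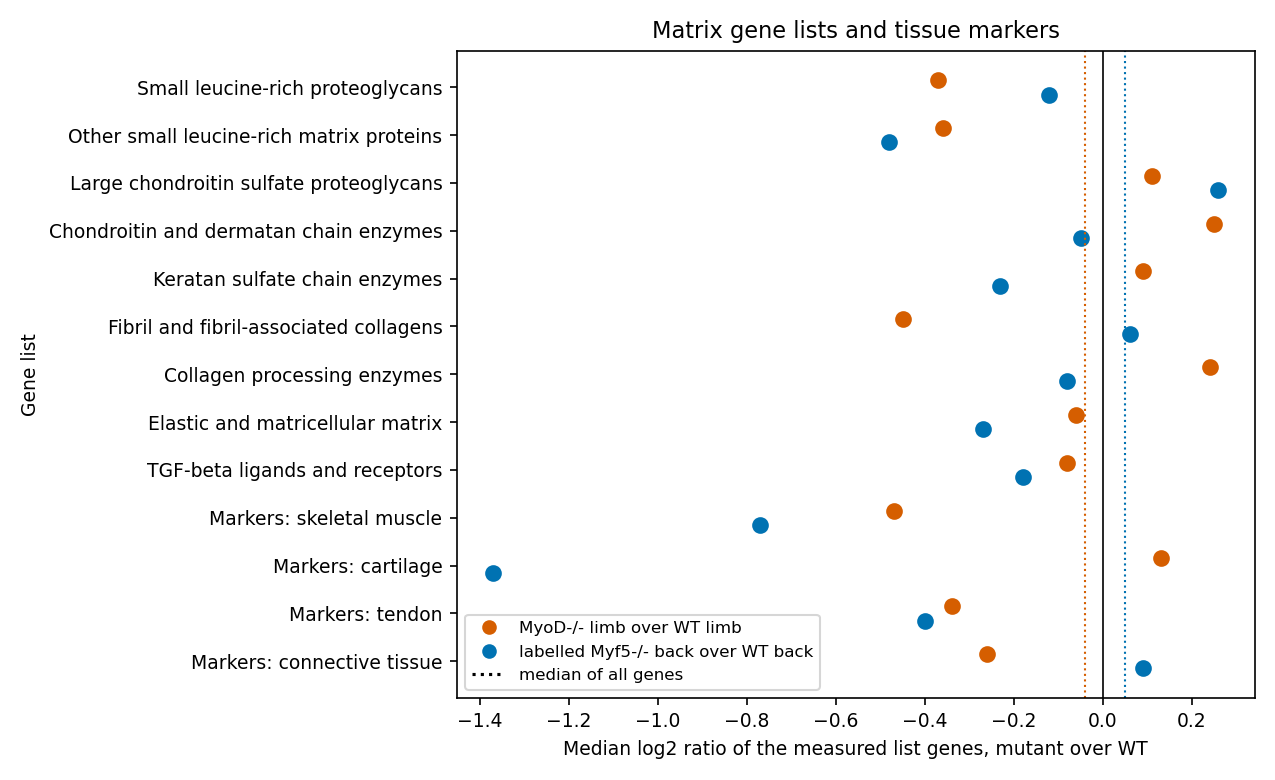
Median log2 ratio of mutant over WT for the measured genes of each matrix list and of 4 marker lists, for MyoD-/- limb over WT limb and for the array labelled Myf5-/- back over WT back, with dotted lines at the median of all genes (-0.04 and 0.05). The proteoglycans (-0.37 and -0.12) lie below 0 in both pairs, as do the skeletal muscle (-0.47 and -0.77) and tendon markers (-0.34 and -0.40). So do the other small leucine-rich proteins (-0.36 and -0.48), elastic and matricellular genes (-0.06 and -0.27) and TGF-beta genes (-0.08 and -0.18). The remaining lists lie above 0 in the limb pair, the back pair or both, and the cartilage markers split, at 0.13 and -1.37.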

How the data were processed

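Muscle of limb or back was dissected from mouse embryos at E13.5 and total RNA (6 µg) was labelled as biotinylated cRNA, per the labels' protocols. The values the authors deposited are linear intensities, 1 per probe set and array. The submitters' processing notes name MAS5, with no version. The deposited columns had 2% trimmed means of 1477 to 1479, so they shared a target. Here arrays were rescaled to a trimmed mean of 500, leaving out 64 control probe sets, then floored at 100 before log2 ratios were formed. Precision is limited by the number of arrays.

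The platform annotation gave 1 gene symbol for 34945 probe sets other than controls, several for 932 and none for 9211 of the 45101. Each gene was read by its brightest probe set in mean log2 signal. Entrez numbers of all 10 members matched a RefSeq table of GRCm38.p6. Called genes of each list (up to 3), collagens, large proteoglycans and muscle regulators, and the genes nearest each member (3, clone-type names passed over) could be named, and other genes were named for their role after their values were seen. The members, 8 further pathway lists, 11 marker lists, 4 comparisons and 9 alternatives were chosen with earlier results of these data known. No test was possible with 1 array per group. The steps were tested on simulated data for the genotype pairs, with changes larger than the members' calls there and in bright genes only. That run does not cover smaller differences or signals near the floor. Python 3.11.15, pandas 2.3.3, numpy 2.4.6 and statsmodels 0.14.6 were used.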

Additional observations from a re-analysis of the deposited data

Results flagged for a closer look

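Prelp was singled out because its ratios had opposite signs in the limb pair and the back pair and each exceeded the median SD between probe sets. Its log2 ratio was 1.48 for MyoD-/- limb over WT limb and -1.56 for the array labelled Myf5-/- back over WT back. The difference of 3.05 was not tested over animals. The back ratio is a bound, with a signal of 21.4 set to the floor, and WT limb read only 105. With a floor of 50 the back ratio was -2.56, and with a floor of 200 it was -0.56. The difference rests on 1 of 2 Prelp probe sets, since the other was under the floor in all 4 arrays. The name of that 1 marks probes that can be shared with other transcripts.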

How the results depend on the processing

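No paired analysis was possible because each group has 1 array and no replicate number is shared. The median of the members stayed within the probe-set SD of its value in every comparison under all 9 alternatives. It ran from -0.39 to -0.35 in the limb pair and from -0.12 to -0.05 in the back pair. In WT limb over WT back it ran from -0.55 to -0.15, and in MyoD-/- limb over the array labelled Myf5-/- back from -0.35 to 0.05. That SD, 0.32 in the back pair and 0.35 elsewhere, is wider than medians such as -0.12 and -0.18. The median of the members changed sign only at a floor of 200 (0.05) in MyoD-/- limb over the array labelled Myf5-/- back. It came to 0.00 there with the second brightest probe set. Counts of members are small, and 23 of them changed by more than 1.5 times. In MyoD-/- limb the members at least 2-fold higher were 1 in place of 2 with a floor of 200, with a pseudocount of 100, by the median of the probe sets, without shared-probe probe sets and with the second brightest probe set, and those lower were 0 in place of 1 with the pseudocount and without shared-probe probe sets. In the array labelled Myf5-/- back those higher were 0 in place of 1 under quantile normalization, loess, a floor of 200 and the pseudocount, and 2 with the second brightest probe set, and those lower were 0 in place of 1 with a floor of 200 and by the median of the probe sets. In WT limb over WT back those lower were 1 in place of 2 with a floor of 200, the pseudocount and without shared-probe probe sets, and 0 by the median of the probe sets and with the second brightest probe set. In MyoD-/- limb over the array labelled Myf5-/- back those higher were 1 in place of 2 with a floor of 200, by the median of the probe sets, without shared-probe probe sets and with the second brightest probe set, and those lower were 2 in place of 3 after loess, with a floor of 200, the pseudocount, by the median of the probe sets and without shared-probe probe sets. The member higher in the back pair that was lost was Omd. Dcn in WT limb over WT back was 0.82 with its second brightest probe set and -1.58 with the brightest. Epyc has no value without shared-probe probe sets. Kera in WT limb over WT back was 1.83 under quantile normalization, 1.85 after loess and 1.62 with the pseudocount. With 1 probe set far above the floor, the other alternatives could hardly move it. Prelp came to 0.00 in all 4 comparisons without its shared-probe set. Over all genes, calls higher and lower in the limb pair were 334 and 753, but 114 and 179 with a floor of 200 and 153 and 342 with the pseudocount. In the back pair they were 808 and 364, but 520 and 514 under quantile normalization, 509 and 533 after loess, 151 and 123 with a floor of 200 and 431 and 171 with the pseudocount. In WT limb over WT back they were 774 and 511, but 245 and 259 with a floor of 200 and 408 and 273 with the pseudocount. In MyoD-/- limb over the array labelled Myf5-/- back they were 527 and 1129, but 730 and 740 under quantile normalization, 764 and 685 after loess, 304 and 377 with a floor of 200, 334 and 622 with the pseudocount and 339 and 889 by the median of the probe sets. Signals near the floor limit Prelp, Omd and Aspn.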
